A study of Sus scrofa with 12 samples.

Results

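The nuclear genes for subunits of the 5 oxidative phosphorylation complexes were followed in whole ovaries of gilts (young female pigs). Members were the loci of the deposited table whose gene name is that of a subunit of complexes I to V (the symbol families NDUFA, NDUFB, NDUFC, NDUFS and NDUFV, SDH, UQCR with CYC1, COX4 to COX8, and ATP5). Where a symbol stood on several loci, the locus with the highest mean count was taken, and a mean level of at least 0.5 FPKM over the 12 libraries was required. FPKM scales the fragments of a locus to its length and to the depth of the library. Levels of different genes can then be set side by side as far as that length is the length of the transcript. The names matched 66 loci with 53 symbols, and 51 members remained out of 29150 loci in the table, of which 20421 reached the same minimum. Complex I had 25 members, complex II 2, complex III 4, complex IV 9 and complex V 11.

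The study took full sisters of the New French Yorkshire line from litters that held both kinds of gilt. The 6 ES gilts had come into estrus in consecutive cycles and were killed at the third estrus. The 6 NES gilts were full sisters of these ES gilts, 1 per litter, in which no estrus had been recorded. The labels do not say which ES and NES libraries are sisters, so every test here is unpaired and leaves shared litters out of account. No treatment is named for either group, and each library is the left ovary of 1 gilt, so follicles, corpora lutea, stroma and vessels are measured together. The labels do not give the stage of the NES ovaries or the ages at slaughter. In such bulk tissue, fewer cells of a type and less RNA per cell cannot be told apart.

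Oxidative phosphorylation takes place in the inner mitochondrial membrane. Complexes I and II take electrons from NADH and succinate, complex III passes them to cytochrome c and complex IV to oxygen, and complex V (ATP synthase) uses the resulting proton gradient to make ATP. Most subunits are encoded in the nucleus and a few core subunits in mitochondrial DNA. In the ovary, mitochondria also house the cleavage of cholesterol to pregnenolone, the first step of steroid synthesis in thecal, granulosa and luteal cells, and oocytes are rich in them.

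No member was called different between ES and NES ovaries. By the edgeR quasi-likelihood test with Benjamini-Hochberg adjustment over all loci, 0 of 51 members had an adjusted p under 0.05, where 193 of 20421 loci (0.945%) did, 31 of them higher in ES (0.152%) and 162 lower (0.793%). At an unadjusted p under 0.05 the count was 3 of 51 members, beside 16.3% of all loci: ATP5MC2 and COX6C were lower in ES (6.79% of all loci) and ATP5F1C higher (9.5%). DESeq2 called 5.22% of all loci, 2.28% higher and 2.94% lower in ES, and of the members it called 1, ATP5MC2, lower in ES. In limma on log2(FPKM + 0.5), which called 1.65% of all loci, the member count was 0. The libraries of the groups overlapped in CPM (counts scaled to libraries of equal size) for all 51 members, while 1.42% of all loci had groups that did not overlap.

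The intervals around these differences bounded their size. The 95% interval of the difference lay within 2-fold in both directions for 48 members and within 1.5-fold for 37, and the median half-width of the interval was 0.36 on the log2 scale. Of the 51 log2 differences (ES minus NES), 50 lay between -0.5 and 0.5, 20 were positive and 31 negative. Their median was -0.03, and that of all tested loci was 0.04, with 56.2% positive. Leaving out 1 library at a time moved the members' median between -0.09 and 0.04.

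Library totals ran from 58140547 to 68961955 counts, of which the members held 0.0891 to 0.204%. The upper end was ES1, where the single locus ATP5F1C measured 1133 CPM. A count of 0 in these libraries allows at most 0.0430 to 0.0519 CPM (3 counts, counting error only), and the lowest count of any member in any library was 19. Ovarian markers were present in every library: the summed CPM of 5 granulosa markers (FSHR, CYP19A1, IHH, INHBB and FST) ran from 83.0 to 1215 in ES and from 494 to 1577 in NES, and that of 5 luteal or steroidogenic markers (STAR, CYP11A1, PTGFR, LHCGR and SCARB1) from 538 to 3716 in ES and from 495 to 766 in NES. Macrophage markers summed to 671 CPM in ES3 and to at most 78.7 elsewhere, and epithelial markers to 181 CPM in ES6 and to at most 15.6 elsewhere. A single gene made up most of each of these high sums, LYZ with 417 CPM in ES3 and FOXJ1 with 121 CPM in ES6. Of the 12 libraries, ES1 had the lowest TMM scaling factor (0.891, against a highest of 1.08).

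**Figure D1:**
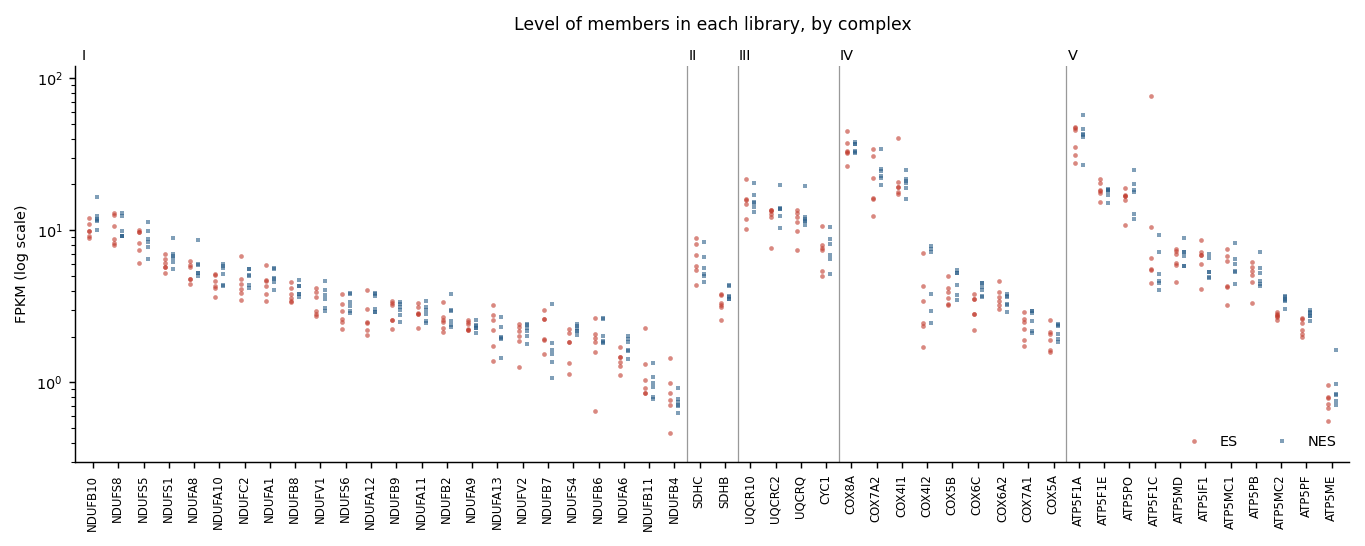
FPKM (log axis) of 50 of the 51 members in each library, grouped by complex and ordered by mean FPKM, with ES libraries as red circles and NES libraries as blue squares. Levels ran from 0.807 (NDUFB4) to 40.9 (ATP5F1A), and the ES1 point of ATP5F1C, at 76.6, stands far above the other 11 libraries of that gene.

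Subunits of 1 complex did not share 1 level. Mean FPKM over the 12 libraries was highest for ATP5F1A, at 40.9, which encodes the alpha subunit in the catalytic head of ATP synthase. COX8A followed at 34.7, COX7A2 at 23.3 and COX4I1 at 21.4, all nuclear subunits of cytochrome c oxidase. The members of complex III lay between 7.50 (CYC1) and 15.5 (UQCR10), and those of complex I between 0.807 (NDUFB4) and 11.2 (NDUFB10). The lowest complex V member was ATP5ME, the e subunit of the membrane part, at 0.852. These 2 lowest members stood just above the minimum, and the next symbols below it were COX7B2 at 0.0706 and COX6B2 at 0.0613, both alternative subunits best known from testis. The length to which FPKM was scaled, recovered from counts and FPKM, ran from 437 bases (NDUFA1) to 11740 bases (NDUFS6), with a median of 2289. This length was at least 75% of the locus in 2 members, NDUFS6 (94.0%) and NDUFA6 (79.6%), and under 25% in 27. Between these limits lay, among others, NDUFB11 (73.7%), COX7A1 (66.5%), ATP5MC2 (64.5%), ATP5F1C (64.3%) and NDUFB10 (62.5%). Where the length is a large part of the span, counts and FPKM can include introns and are not levels of the mature transcript alone. Of the members, 20 overlapped 2 or more RefSeq genes (build Sscrofa11.1) and 31 overlapped 1.

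Complex I takes electrons from NADH and is the largest of the complexes. Of its 25 members, 0 had an unadjusted p under 0.05 in edgeR, beside 16.3% of all loci. The median log2 difference was -0.03, and 10 differences were positive and 15 negative. Summed FPKM was 102 ± 11.0 (SD, n = 6) in ES and 109 ± 11.7 (n = 6) in NES, a difference smaller than the spread within either group. The core subunits carry the flavin and the iron-sulfur clusters that lead electrons through the matrix arm. NDUFS1, the largest of them, ran from 34.8 to 47.7 CPM in ES and from 34.9 to 54.4 in NES, with a log2 difference of -0.08 ± 0.12. NDUFV1, which binds NADH and the flavin, ran from 16.7 to 28.3 and from 16.5 to 26.5, with a difference of -0.03 ± 0.16. NDUFS8, which holds 2 of the clusters, and NDUFV2 had differences of 0.06 ± 0.17 and -0.03 ± 0.15. In these core subunits the groups covered almost the same range. The NDUFV1 locus overlaps LOC100525027 over 30.3% of its span, and RefSeq NDUFV2 makes up 57.9% of the NDUFV2 locus. Values of both can include reads from outside the named gene. The 8 NDUFB subunits of the membrane arm had a median of 0.01, and the 12 other accessory subunits one of -0.06. Among the latter, NDUFA13, also known as GRIM19, had the largest positive difference (0.27 ± 0.22), with 4.10 to 9.66 CPM in ES and 4.06 to 7.38 in NES. NDUFA6 was next to NDUFS4 at the negative end, with 7.13 to 9.67 CPM in ES, 7.86 to 10.8 in NES and a difference of -0.23 ± 0.12 (edgeR adjusted p = 0.372).

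NDUFB10, the complex I member with the highest mean FPKM, measured 32.6 CPM at the lowest, 36.2 at the median and 45.1 at the highest in ES, and 35.5, 42.1 and 56.2 in NES. The groups overlapped, with NES1 the highest library. The locus overlaps the ribosomal protein gene RPS2 over 43.7% and RPL3L over 17.1% of its span, so its level and its rank can include reads of these genes. Its log2 difference was -0.18 ± 0.13 (SE; edgeR adjusted p = 0.517). NDUFB7, an accessory subunit with twin cysteine motifs that is imported into the intermembrane space, had the largest positive difference of the complex, 0.44 ± 0.28 (edgeR adjusted p = 0.477). Its ES libraries ran from 1.10 to 2.13 CPM with a median of 1.61, and its NES libraries from 0.732 to 2.27 with a median of 1.08. The highest NES library, NES4 at 2.27 CPM, stood above every ES library. NDUFB4, an accessory subunit of the membrane arm, ran from 1.21 to 3.39 CPM in ES and from 1.41 to 2.02 in NES, with the highest value in ES3.

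NDUFS4, an accessory subunit of the matrix arm needed for a stable NADH-oxidising module, had the largest negative difference of complex I. Its ES libraries measured 18.9 CPM at the lowest (ES1), 27.6 at the median and 33.9 at the highest, and its NES libraries 28.9, 32.4 and 35.5. ES1 and ES3, at 18.9 and 20.2 CPM, lay below all other libraries, and the remaining 4 ES libraries fell between 27.5 and 33.9. The log2 difference was -0.27 ± 0.14, with a 95% interval from -0.58 to 0.04 (edgeR adjusted p = 0.368). The symbol stood on 3 further tested loci of the same region of chromosome 16, on both strands. These had differences of -0.27, -0.24 and -0.34 (edgeR adjusted p = 0.441, 0.522 and 0.328). The 4 loci overlap in position and are not independent, and the locus chosen by count holds only 15.1% of the RefSeq gene.

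Complex II, succinate dehydrogenase, links the citrate cycle to the chain and has no mitochondrially encoded subunit. Both members concern its electron path: SDHB carries the iron-sulfur clusters and SDHC is a membrane anchor that helps to hold heme. SDHC ran from 20.8 to 43.0 CPM in ES (median 30.1) and from 20.5 to 36.9 in NES (median 24.0), with ES1, ES6 and NES1 the highest. Its log2 difference was 0.26 ± 0.20 (edgeR adjusted p = 0.558). SDHB ran from 30.8 to 41.1 CPM in ES (median 35.3) and from 37.0 to 43.7 in NES (median 37.6), and its log2 difference was -0.13 ± 0.10 (edgeR adjusted p = 0.549). The pair thus had opposite signs and overlapping groups. SDHA, the flavoprotein, was listed under an Ensembl identifier only and is no member by name. It measured 66.9 ± 11.5 CPM in ES and 63.4 ± 9.27 in NES (n = 6 each), a log2 difference of 0.08 (edgeR adjusted p = 0.819). SDHD, the other membrane anchor, lay in a locus joined to NKAPD1 that measured 47.4 ± 8.39 CPM in ES and 42.3 ± 4.93 in NES (edgeR adjusted p = 0.571).

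Complex III passes electrons from ubiquinol to cytochrome c. Its 4 members had log2 differences from -0.11 to 0.05 and a median of -0.04, and each changed sign when particular libraries were left out. CYC1, the heme-carrying cytochrome c1, ran from 8.03 to 18.9 CPM in ES (median 12.0) and from 7.79 to 15.6 in NES (median 11.2). UQCR10, a small subunit next to cytochrome c1, ran from 6.69 to 14.0 in ES (median 10.1) and from 8.53 to 12.5 in NES (median 9.68). Their log2 differences were 0.05 ± 0.22 and 0.01 ± 0.18 (edgeR adjusted p = 0.938 and 0.979). UQCRQ, which sits beside cytochrome b, ran from 8.52 to 16.3 CPM in ES and from 11.7 to 20.7 in NES, and UQCRC2, a core protein on the matrix side, from 24.6 to 47.7 in ES and from 31.3 to 59.1 in NES. In both, NES1 was the highest library and ES2 the lowest. Their log2 differences were -0.11 ± 0.18 and -0.10 ± 0.17 (edgeR adjusted p = 0.819 and 0.814). Summed FPKM of the complex ranged from 32.0 (ES2) to 56.4 (ES6) in ES and from 41.5 (NES6) to 70.3 (NES1) in NES.

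**Figure D2:**
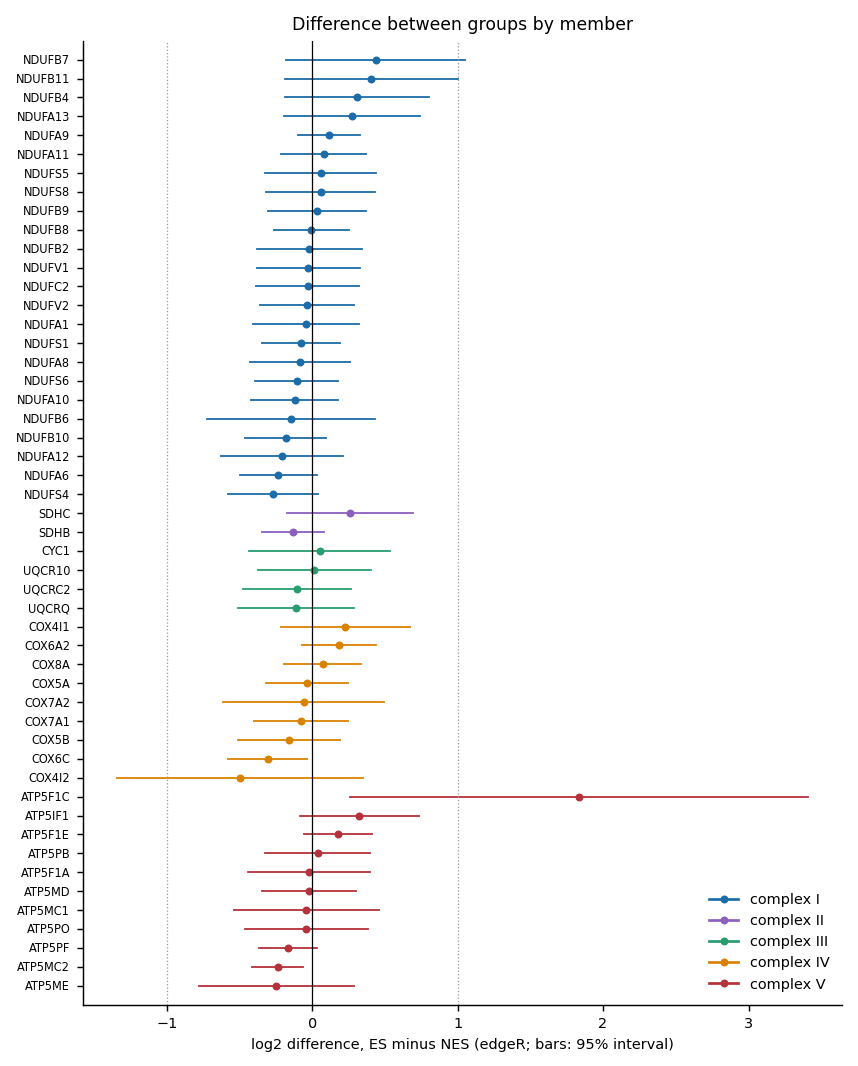
Log2 difference, ES minus NES, of 50 of the 51 members from edgeR (points) with its 95% interval (bars), grouped and coloured by complex and ordered by size, with dotted lines at 2-fold. The intervals of ATP5F1C, ATP5MC2 and COX6C do not include 0, no adjusted p was under 0.05, and ATP5F1C at 1.84 lies outside the range of all other members.

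Complex IV, cytochrome c oxidase, reduces oxygen. Its catalytic subunits are mitochondrially encoded and were not measured here, since no locus of the table lies on a mitochondrial chromosome. The 9 nuclear members had a median log2 difference of -0.06, with 3 positive and 6 negative. Summed FPKM was 97.3 ± 18.5 in ES and 102 ± 8.37 in NES (n = 6 each).

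COX6C, a small transmembrane subunit, had the smallest unadjusted p of the complex. Its ES libraries measured 13.9 CPM at the lowest (ES1), 17.8 at the median and 21.5 at the highest (ES6), and its NES libraries 19.3, 22.6 and 24.8. The locus covers all of RefSeq COX6C and also overlaps VPS13B over 33.9% of its span. Of the ES libraries, ES1, ES2 and ES4 lay below all NES libraries, at 13.9, 15.9 and 16.1 CPM. Its log2 difference was -0.31 ± 0.12, with a 95% interval from -0.58 to -0.04 (edgeR unadjusted p = 0.0288, adjusted p = 0.249). COX5A, a subunit on the matrix side, and COX5B, which binds zinc, had log2 differences of -0.04 ± 0.13 and -0.16 ± 0.16. COX8A, the most abundant member of the complex per length, ran from 17.5 to 30.4 CPM in ES (median 23.4) and from 21.3 to 25.1 in NES (median 22.2), with a log2 difference of 0.07 ± 0.12 (edgeR adjusted p = 0.826).

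Several places in complex IV can be filled by 1 of 2 alternative subunits. COX4I1 is the common form of subunit 4, and COX4I2 is a form known from lung, smooth muscle and pericytes and from low oxygen. COX4I1 measured 46.7 CPM in ES3 and between 18.0 and 26.2 in the 11 other libraries. Its log2 difference of 0.23 ± 0.21 (edgeR adjusted p = 0.622) rested on ES3, and was -0.02 without that library, in which the macrophage marker sum was also highest. The part of those markers in the COX4I1 value was not tested. COX4I2 was the most variable member of complex IV. It measured 6.04 CPM in ES2, 5.67 in NES1, 6.39 in NES3 and 6.26 in NES4, and from 1.46 to 3.60 in the other 8 libraries. Both groups held high and low libraries, and the log2 difference was -0.50 ± 0.39 (95% interval -1.34 to 0.35; edgeR adjusted p = 0.564). Markers of smooth muscle and pericytes, with 10 of 10 measured, summed to 1819 to 3996 CPM in ES and 1209 to 2700 in NES. ACTA2 alone ran from 505 to 1656 CPM in ES and from 521 to 1263 in NES. Of the 10 markers, 8 had positive differences (ES minus NES) and 2 negative ones, KCNJ8 (-0.12) and ABCC9 (-0.20). In the 4 libraries with high COX4I2 the sum was 2360 (ES2), 1547 (NES1), 1209 (NES3) and 2157 (NES4), and in the other 8 it ran from 1293 to 3996. The part of these cells in the COX4I2 value was not tested. Within libraries, COX4I2 stood at 0.179 ± 0.115 of the COX4I1 FPKM in ES and at 0.274 ± 0.154 in NES (n = 6 each), from 0.0573 (ES3) to 0.370 (ES2) and from 0.0992 (NES2) to 0.472 (NES4).

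The heart and muscle isoform COX7A1 and its common counterpart COX7A2 had a FPKM ratio of 0.121 ± 0.0499 in ES and 0.108 ± 0.0281 in NES, and the ranges overlapped. The locus named COX7A1 is 42.9% RefSeq COX7A1 and 39.6% the neighbouring gene CAPNS1, so its level and the ratio can include reads of CAPNS1. COX7A2 itself ran from 8.75 CPM (ES4) to 26.8 (ES1) in ES and from 13.2 to 22.2 in NES, with a log2 difference of -0.06 ± 0.26 (edgeR adjusted p = 0.937). COX7A1 ran from 5.71 to 8.72 and from 5.91 to 8.40, with a difference of -0.08 ± 0.15 (edgeR adjusted p = 0.843). The locus named COX6A2, the muscle form of subunit 6A, ran from 13.2 to 19.0 CPM in ES and from 11.3 to 14.5 in NES, a log2 difference of 0.18 ± 0.12 (edgeR adjusted p = 0.465). This locus covers 22174 bases, all inside the RefSeq gene LOC100626250 of 26486 bases, so its reads cannot be assigned to COX6A2. Of the 5 listed striated muscle markers, 0 reached the minimum level. The common form COX6A1 lay in a joined locus at 28.3 ± 3.56 CPM in ES and 27.9 ± 3.18 in NES (edgeR adjusted p = 0.959).

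**Figure D3:**
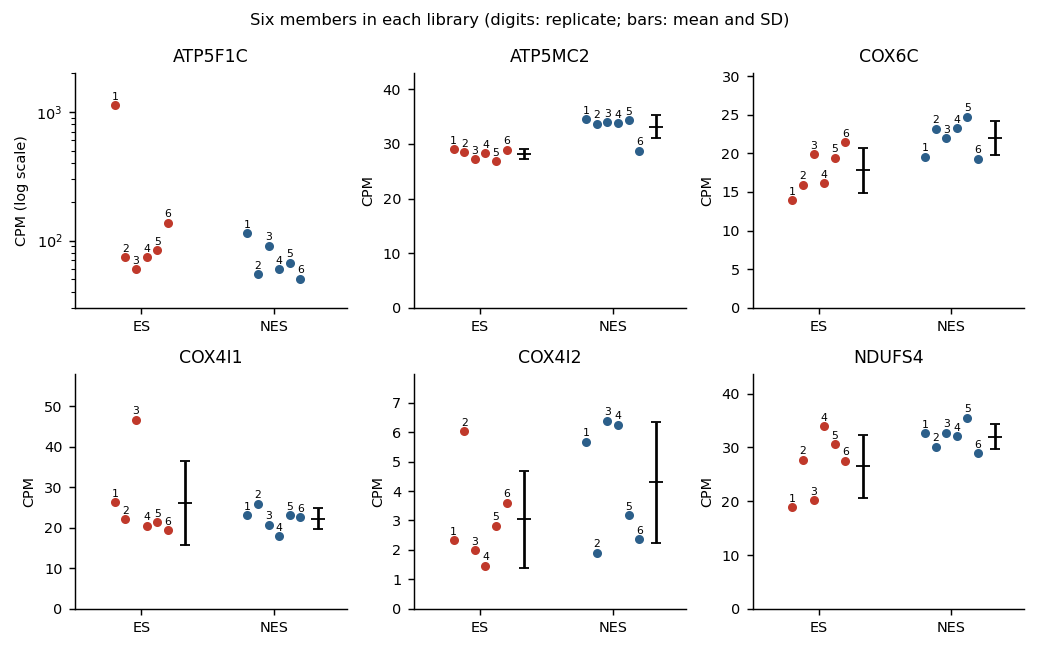
CPM of 6 members in each library (points, numbered by replicate), with ES in red and NES in blue and bars for mean and SD where the axis is linear; the ATP5F1C axis is logarithmic. ATP5F1C is at 1133 in ES1 and at most 138 elsewhere, COX4I1 is high in ES3 alone, and 5 NES libraries of ATP5MC2 lie above all ES libraries.

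Complex V makes ATP: a catalytic head on a central stalk, held by a peripheral stalk to a membrane part with a ring of c subunits. The median log2 difference of its 11 members was -0.02, with 4 positive and 7 negative. Summed FPKM was 121 ± 40.0 in ES and 115 ± 20.2 in NES (n = 6 each), and without ATP5F1C it was 103 ± 17.1 and 109 ± 18.5. ATP5F1A, the alpha subunit, ran from 111 to 214 CPM in ES (median 162) and from 101 to 212 in NES (median 165). ES1, NES1, ES3 and ES6 were its highest libraries and NES6 and ES2 its lowest. The log2 difference was -0.02 ± 0.19 (edgeR adjusted p = 0.968).

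ATP5F1C, the gamma subunit of the central stalk that turns inside the head, had the largest difference of any member, and it rested on 1 library. ES1 measured 1133 CPM, while the other ES libraries ran from 59.7 to 138 and the NES libraries from 50.6 to 115. edgeR gave a log2 difference of 1.84 ± 0.73 with a 95% interval from 0.26 to 3.41 (edgeR adjusted p = 0.239), and it was 0.23 without ES1. On the scale of log2(FPKM + 0.5), limma gave 0.75 (adjusted p = 0.558). The locus lies at chr10:63584291-63600396 on the minus strand and covers the RefSeq gene ATP5C1, the older symbol of ATP5F1C. It also overlaps a RefSeq lncRNA, LOC110255717, by 3031 bases and the gene KIN of the other strand by 785 bases. KIN measured 71.3 CPM in ES1 and 79.4 ± 10.3 in ES as a group, so the neighbour was not high in that library. Luteal markers summed to 3716 CPM in ES1, the highest of the 12 libraries. Their part in the ATP5F1C value was not tested.

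The 2 measured genes of the c subunit encode the same mature protein behind different import sequences. ATP5MC2 had the smallest p of all members and the tightest ES group. Its ES libraries measured 29.0, 28.5, 27.2, 28.3, 26.8 and 28.9 CPM (ES1 to ES6), and its NES libraries 34.5, 33.7, 34.0, 33.8, 34.4 and 28.8 (NES1 to NES6). The first 5 NES libraries lay above all ES libraries, and NES6 fell inside the ES range. The log2 difference was -0.24 ± 0.08, with a 95% interval from -0.41 to -0.07 (edgeR unadjusted p = 0.0108, adjusted p = 0.175), and DESeq2 gave -0.24 with an adjusted p of 0.0110. In the deposited FPKM values the groups did not overlap, with 2.58 to 2.89 in ES and 3.01 to 3.67 in NES. The share of all loci without overlap was counted in CPM only (1.42%), where the groups of this member did overlap. The FPKM values also lie lower in ES over all tested loci: their median difference was -0.05 in limma on log2(FPKM + 0.5), against 0.04 in edgeR. The ATP5MC2 locus lies at chr5:18867867-18880059, and its FPKM is scaled to 7869 of 12193 bases. ATP5MC1 varied more, from 7.32 to 19.6 CPM in ES and from 9.83 to 17.8 in NES, with a log2 difference of -0.04 ± 0.23 (edgeR adjusted p = 0.953). The FPKM ratio of ATP5MC1 to ATP5MC2 was 1.98 ± 0.676 in ES, from 1.18 (ES5) to 2.93 (ES1), and 1.72 ± 0.301 in NES. This ratio depends on unlike scaled lengths, 1818 bases for ATP5MC1 and 7869 for ATP5MC2. In CPM the order was reversed, with ATP5MC1 at 12.9 in ES and 13.2 in NES and ATP5MC2 at 28.1 and 33.2. Which of the 2 genes has more transcripts cannot be read from these values. ATP5MC3 lay in a locus joined to ATF2, which measured 83.7 ± 10.3 CPM in ES and 92.2 ± 11.5 in NES (edgeR adjusted p = 0.576).

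ATP5IF1 encodes the inhibitor that stops ATP synthase from running in reverse. It ran from 2.82 to 6.10 CPM in ES (median 5.05) and from 3.28 to 4.84 in NES (median 3.48). Of the ES libraries, 4 were above the highest NES library and ES5 was below the lowest. The log2 difference was 0.32 ± 0.19 (95% interval -0.09 to 0.73; edgeR adjusted p = 0.420). ATP5ME was measured at few counts, from 0.320 to 0.544 CPM in ES and from 0.382 to 0.831 in NES, with a difference of -0.25 ± 0.25 (edgeR adjusted p = 0.660), which was -0.05 without NES2. The 3 peripheral stalk members ATP5PB, ATP5PF and ATP5PO had log2 differences of 0.04, -0.17 and -0.04. ATP5PF varied least, with 18.0 to 22.9 CPM in ES and 21.3 to 23.7 in NES. ATP5F1E, the epsilon subunit at the foot of the central stalk, ran from 40.9 to 59.8 CPM in ES (median 47.5) and from 37.5 to 48.0 in NES (median 44.9), a difference of 0.18 ± 0.11 (edgeR adjusted p = 0.451).

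How much a member varied over the 12 libraries differed widely within a complex. The coefficient of variation of CPM was 9.06% for ATP5PF, 9.47% for NDUFA9, 10.1% for ATP5MC2, 10.2% for NDUFB8 and 10.3% for SDHB at the low end. At the high end it was 183% for ATP5F1C, 51.4% for COX4I2, 44.2% for NDUFB11, 36.5% for NDUFB7 and 32.2% for COX7A2. Both ends held subunits of complexes I and V. The fewest counts in a library differ too: NDUFB7 had as few as 46 counts in a library, while NDUFB11 had at least 311 and COX7A2 at least 515. NDUFB11, an X-linked subunit of the membrane arm, measured 17.7 CPM in ES1 and between 5.15 and 9.37 in the other 11 libraries. RefSeq NDUFB11 makes up 39.8% of the span of this locus and RBM10 overlaps 15.4%, so its values can include reads from outside NDUFB11.

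The members' levels differed between libraries of the same group. For each library, the median over the 51 members of log2 CPM minus the member's mean over 12 libraries was taken as the members' level. It was highest in NES1 (0.23) and ES1 (0.21), then ES6 (0.13), NES5 (0.10), ES3 (0.08) and NES4 (0.05). It was lowest in ES2 (-0.25), ES5 (-0.20) and NES6 (-0.20). The difference between the group means was -0.03, and the SD within groups was 0.19 in ES and 0.15 in NES. The lowest and the highest library were 0.47 apart on the log2 scale, 1.39-fold. The same median over all tested loci is held near 0 by the TMM scaling and was between -0.02 and 0.0009, so these values are relative to the other loci.

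**Figure D4:**
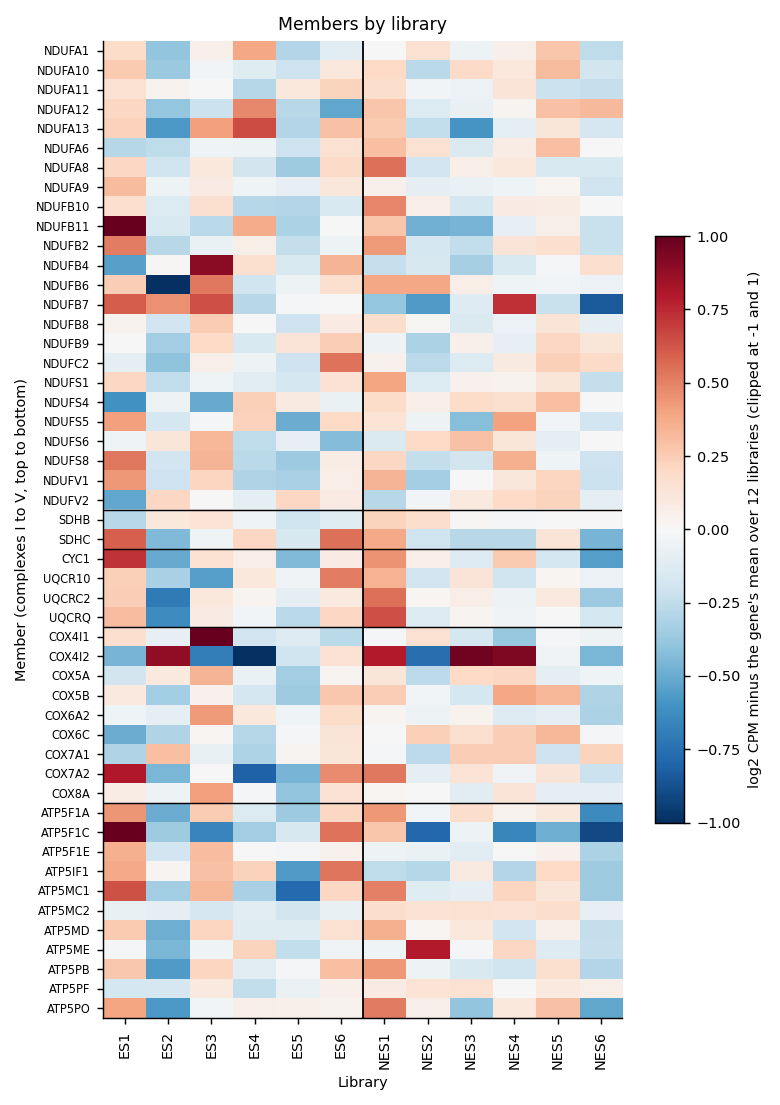
Log2 CPM of 50 of the 51 members (rows, complexes I to V from top to bottom) minus its mean over the 12 libraries (columns), red for above and blue for below, clipped at -1 and 1. ES1 and NES1 are mostly red and ES2, ES5 and NES6 mostly blue, while COX4I2, COX7A1 and NDUFS4 do not follow.

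The order held for many single members, not for all. ES1 was among the 3 highest libraries for 29 members, NES1 for 26, ES3 for 22 and ES6 for 20, against 1 for ES5 and 3 each for ES2 and NES6. ES2 and ES5 were each among the 3 lowest for 29 members and NES6 for 24. ES1 exceeded ES2 in 40 of 51 members, with a median log2 difference of 0.44, and NES1 exceeded NES6 in 44, with a median of 0.40. Members that ran the other way between ES1 and ES2 included COX7A1, NDUFS4, NDUFB4, SDHB, NDUFS6 and NDUFV2. The value of ES1 depended on the scaling. In the deposited FPKM values its median was 0.03 while that of all tested loci in ES1 was -0.16, and the spread over libraries was 0.48. The spread was 0.48 with RLE factors and 0.39 with upper-quartile factors. It was 0.55 for the 23 members with a scaled length up to 2000 bases and 0.45 for the 28 longer ones.

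The library order differed between the complexes. ES1 and NES1 had the 2 highest medians in complexes I (0.21 and 0.20), III (0.27 and 0.50) and V (0.35 and 0.28). In complex IV the highest was NES4 (0.21), and ES1 stood at -0.04. The spread was widest in complex III, at 1.07, where ES2 stood at -0.57, and was 0.71 in complex V, 0.54 in complex II, 0.42 in complex I and 0.41 in complex IV. These medians rest on 2 to 25 members each, and their differences were not tested.

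**Figure D5:**
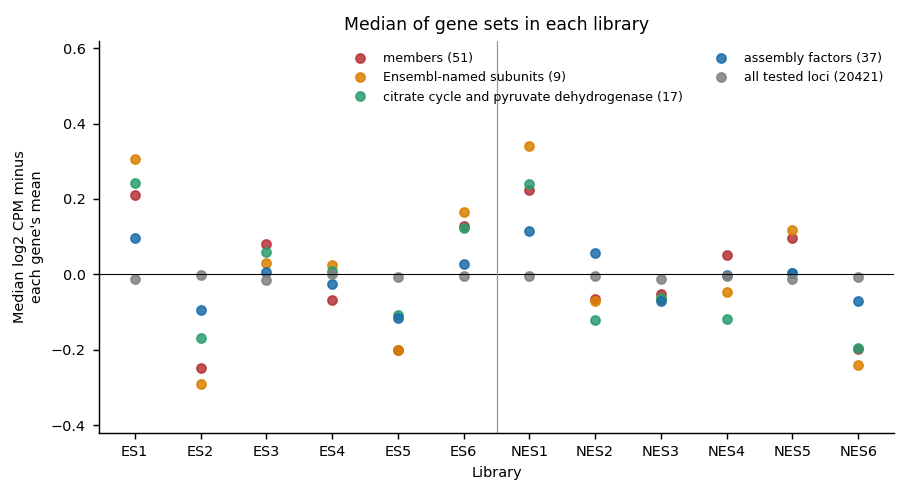
Median of log2 CPM minus each gene's mean in each library, for the 51 members, the 9 subunits listed by Ensembl identifier, 17 citrate cycle and pyruvate dehydrogenase genes, 37 assembly factors and all 20421 tested loci. ES1 and NES1 are the 2 highest and ES2 and NES6 among the 3 lowest in the 4 gene sets drawn, while the all-locus median is held near 0 by the scaling. The lists of 10 electron carriers and exchangers and of 13 regulators are not drawn and had other orders. In the carriers ES3 (0.14) stood above NES1 (0.11), and NES6 was at -0.11. In the regulators NES6 was at 0.04, ES2 at -0.02 and ES4 lowest at -0.08.

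The 9 subunits outside the name rule, listed only by Ensembl identifier (COX7B, NDUFA2, NDUFA4, NDUFA5, NDUFB1, NDUFB5, SDHA, UQCR11 and UQCRFS1), were read as loci apart from the members. Their log2 differences ran from -0.30 (UQCR11) to 0.44 (NDUFA2), and 0 were called by edgeR, beside 0.945% of all loci. Their library medians were 0.34 in NES1 and 0.31 in ES1, and -0.29 in ES2, -0.24 in NES6 and -0.20 in ES5. A further 9 symbols lay only in loci joined to a neighbouring gene. Of these, the joined locus of NDUFC1 and MGARP stood apart in ES1, at 141 CPM against 11.0 to 34.4 in the other ES libraries and 15.7 to 21.1 in NES. Its log2 difference was 1.14 ± 0.53 (edgeR adjusted p = 0.311), and reads of the 2 genes cannot be told apart there.

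Marker sums of other cell types also differed between these libraries. The luteal sum was 3716 CPM in ES1 and 2741 in ES6, where the members' level was high, but 1223 in ES2 and 1264 in ES5, where it was low, and 637 in ES3 and 659 in NES1, where it was above 0. The granulosa sum was highest in NES1 (1577), then ES6 (1215), and was 494 in NES6. It was lowest in ES3 (83.0), where the members' level was above 0, and next lowest in ES4 (114), where that level was -0.07. Of its 5 markers, 4 had negative differences (ES minus NES) and 1, CYP19A1, a positive one. IHH was called lower in ES (edgeR adjusted p = 0.0420), as were 0.793% of all loci. In ES6, CYP19A1 made up 1040 CPM of the sum. FSHR (13.9), IHH (5.38), INHBB (124) and FST (32.2) lay there below every NES library. The part of these cell types in the members' level was not tested.

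The other genes of the pathway gave 0 called by edgeR in each list, beside 0.945% of all loci. Among 17 of 17 measured citrate cycle and pyruvate dehydrogenase genes, which supply NADH and succinate, 11 differences were positive and 6 negative, with a median of 0.08. OGDH, which encodes the first enzyme of the oxoglutarate dehydrogenase complex, measured 134 CPM at the lowest, 212 at the median and 483 at the highest in ES, and 110, 124 and 152 in NES. ES6 and ES1 were its highest libraries, at 483 and 349, and ES2 and ES5 fell inside the NES range. Its log2 difference was 1.02 ± 0.28 (edgeR adjusted p = 0.107), and it was called by DESeq2, which called 5.22% of all loci. DLD, with the next smallest p of the list, ran from 25.7 to 26.7 CPM in ES and from 25.6 to 33.5 in NES. The DLD log2 difference was -0.17 ± 0.09 (edgeR adjusted p = 0.385). Citrate synthase (CS) measured 68.2 ± 12.4 in ES and 66.0 ± 13.7 in NES (edgeR adjusted p = 0.915). The library medians of this list were 0.24 in ES1 and in NES1 and -0.20 in NES6.

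Of 13 listed electron carriers and exchangers, 10 were measured, with a median log2 difference of 0.10, 6 positive and 4 negative. SLC25A4, the ADP/ATP exchanger of muscle and heart, ran from 10.9 to 58.8 CPM in ES (median 15.3) and from 6.46 to 13.8 in NES (median 9.97), with ES6 far above the rest. Its log2 difference was 1.16 ± 0.39 (edgeR adjusted p = 0.177). GPD2, the glycerol phosphate dehydrogenase of the inner membrane, ran from 6.88 to 21.5 in ES and from 6.52 to 8.92 in NES, with a difference of 0.64 ± 0.26 (edgeR adjusted p = 0.254). Cytochrome c itself (CYCS) measured 10.9 ± 4.58 CPM in ES and 11.9 ± 4.58 in NES, with 19.1 in ES1 and 20.8 in NES1 as the highest libraries.

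Of 55 assembly factors, which build the complexes without staying in them, 37 were measured, with a median of -0.04. UQCC1 and UQCC2, which act together in the making of cytochrome b for complex III, had the smallest p-values. UQCC1 ran from 35.6 to 48.7 CPM in ES and from 47.8 to 56.0 in NES, and UQCC2 from 3.94 to 7.91 and from 7.10 to 8.62. Their log2 differences were -0.28 ± 0.11 and -0.40 ± 0.16 (edgeR adjusted p = 0.228 and 0.250). Of 19 regulators and genes of mitochondrial DNA upkeep, 15 had a locus of their own and 13 reached the minimum. In these 13, 3 differences were positive and 10 negative, with a median of -0.04. PPARGC1B, a coactivator of mitochondrial biogenesis, ran from 5.76 to 17.6 CPM in ES and from 5.97 to 8.02 in NES (log2 difference 0.61 ± 0.22, edgeR adjusted p = 0.205). TFB1M, an rRNA methyltransferase of mitochondria, ran from 18.8 to 37.9 and from 33.6 to 44.7 (-0.36 ± 0.16, edgeR adjusted p = 0.294). NRF1 and TFAM, the nuclear factor and the mitochondrial DNA packaging protein through which subunit genes are commonly linked to organelle number, had log2 differences of -0.04 and -0.02. Of 6 further subunits or relatives of subunits outside the name rule, 5 had a locus of their own and 3 reached the minimum. HIGD1A had the largest difference, 0.35 ± 0.20 (edgeR adjusted p = 0.414), followed by NDUFAB1 at -0.16 ± 0.14.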

How the data were processed

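The authors deposited 1 table that gives, for each locus and each of 12 libraries, a raw count and a length-scaled FPKM, per the file headers. RNA was depleted of ribosomal RNA and strand-specific libraries were made, per the labels' protocols. Trimming and quality tools (cutadapt, FastQC), the aligners HISAT2 and TopHat and build Sscrofa11.1 appear in the submitters' processing notes. How reads were counted, and on which strand, is not given in the sources used here. Antisense, joined and overlapping loci can share reads.

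Groups came from sample titles. Counts of 20421 loci (mean FPKM at or above 0.5) were tested with edgeR 4.0.16 (TMM, quasi-likelihood, no covariate, R 4.3.3), adjusted by Benjamini-Hochberg over all tested loci and called under 0.05. SE is the difference over the root of F. CPM values use TMM factors, and library medians use log2(CPM + 0.05). Alternatives were DESeq2 1.42.0, limma 3.58.1 on log2(FPKM + 0.5), other scalings and filters, a replicate block and left-out libraries. The scaled length of a locus came from counts and FPKM, calibrated on 962 single-exon loci, where 96.4% of values came within 1%. The library totals behind it were taken from these same loci, so this is no check on loci with several exons. In the joined locus of ATP5F1D the length came to 15614 bases on a span of 9030, so it need not be a part of the span.

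Members and gene lists were chosen with earlier results of these data known. Named members were, per complex, the one of highest FPKM, of largest positive and negative difference and of smallest p, and beside these the isoform pairs, c subunit genes, ATP5IF1, SDH genes and those next to the FPKM minimum. In the other lists the 2 genes of smallest p were named; CS, CYCS, NRF1, TFAM, the further subunits given for range, the peripheral stalk members and the members that ran against the library order were chosen after their values were seen. Each library is 1 gilt, and the closest pair of libraries had a chi-square of 83.1 per degree of freedom between their counts, far beyond counting noise. No sequence is printed. 1 member is counted in the totals and not reported here by itself.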

Additional observations from a re-analysis of the deposited data

Results flagged for a closer look

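In 50 of the 51 members and each group of 6 libraries, the highest and the lowest library were compared with the nearest other. Of 100 groups, 10 held a library that stood apart by more than Dixon's 95% critical value for 6 samples. Chance gives about 1 in 20 for independent, normally distributed values. These CPM values were not log-transformed and many members varied together by library, so the count cannot be set against that rate. ATP5F1C stood at 1133 CPM in ES1, with 138 the next ES value. COX4I1 stood at 46.7 CPM in ES3 (next 26.2). ATP5MC2 was low in NES6, at 28.8 CPM (next 33.7).

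ES1 was also the highest ES library for NDUFB11 (17.7 CPM, next 9.37) and NDUFB2 (16.4, next 11.9). NES1 was the highest NES library for UQCRQ (20.7 CPM, next 13.5), NDUFB10 (56.2, next 42.4) and NDUFA8 (16.2, next 11.9). NES4 was high for NDUFB7 (2.27 CPM, next 1.23) and NES2 for ATP5ME (0.831, next 0.535).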

How the results depend on the processing

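The count of called loci depended on the method: 193 with edgeR, 1065 with DESeq2, 334, 337 and 319 with limma at a pseudocount of 0.1, 0.5 and 1, 295 with upper-quartile factors, 28 with no filter, 1 without ES3 and ES6, and 0 to 415 with 1 library left out (85 without ES3, 68 without ES5, 1 without NES2, 415 without NES6 and 0 without any one of ES2, ES4, ES6, NES1, NES3, NES4, NES5). Members called stayed at 0 under these except for DESeq2, which called 1 (ATP5MC2) of 50 with an adjusted p. DESeq2 also called OGDH among the citrate cycle genes. With the replicate block 0 loci and 0 members were called. Same-numbered libraries correlated from -0.03 to 0.24 and were closest in 3 of 6 numbers. For numbers 1 and 5 the values were 0.24 and 0.23, against at most -0.009 and 0.04 with other numbers. These correlations do not decide whether the numbers mark sisters. Since no label ties the numbers to litters, they were not taken as pairs, and the sister pairs could not be recovered.

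UQCR10 turned negative in limma (-0.105, -0.102 and -0.098 at the 3 pseudocounts), with the replicate block (-0.0138), with upper-quartile factors (-0.0262) and without ES3 and ES6 (-0.0053). CYC1 turned to -0.0638, -0.0601 and -0.0561 in limma. COX8A turned to -0.0386, -0.0380 and -0.0372 in limma and to -0.0608 without ES3 and ES6. With 1 library left out, differences ran from -0.104 to 0.104 for UQCR10, -0.130 to 0.154 for CYC1, -0.192 to 0.0332 for UQCRQ, -0.177 to 0.00951 for UQCRC2, -0.0192 to 0.144 for COX8A, -0.0250 to 0.299 for COX4I1, -0.283 to 0.0629 for COX7A2, -0.130 to 0.0667 for ATP5F1A and -0.205 to 0.0792 for ATP5MC1. Of the members named here that kept their sign, those moved by over 1.5 times were ATP5F1C (0.227 to 2.05), ATP5ME (-0.325 to -0.0533), COX4I2 (-0.816 to -0.348), COX7A1 (-0.153 to -0.0262), COX6A2 (0.103 to 0.217), NDUFB10 (-0.243 to -0.0931), NDUFB4 (0.101 to 0.419), NDUFB7 (0.327 to 0.711) and SDHC (0.145 to 0.371). ATP5F1C was 1.84 with edgeR, 0.770, 0.745 and 0.717 in limma at the 3 pseudocounts, and 0.806 with the replicate block. The cause was not tested. The median of complex II was 0.06 with edgeR and -0.03 in limma at a pseudocount of 0.5, and the complex medians moved by less than 1 SD of their libraries under every alternative run. Adding the 9 Ensembl-listed subunits, chosen after the data were seen, left the members' median at -0.03. Counting NDUFA4 with complex IV was not run, since that gene is no member by name. Members with few counts, such as ATP5ME and NDUFB7, have the widest counting error.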
